A study of Mus musculus with 56 samples.

Results

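The genes described here code for 10 proteins of the lipoprotein system that the liver makes, namely Apob and Mttp (assembly of triglyceride-rich particles), Apoa5, Apoc3 and Apoa4 (handling of triglyceride), Apoa1, Apoa2 and Apom (high-density lipoprotein), Lipc (hepatic lipase) and Apoe (clearance of remnants). They were chosen by name from the gene table, whose Ensembl identifiers were matched to mouse symbols through GENCODE, and all 10 were among the 23161 genes tested of 25415 listed. Expression was measured by RNA sequencing in 56 livers. The donors were female C57BL/6J mice, 9 weeks of age, on normal chow in a cycle of 12 h light and 12 h dark. For 7 days they ate by day only (daytime-restricted feeding, DRF) or by night only (nighttime-restricted feeding, NRF, the reference regimen). Collection times are zeitgeber times (ZT), in h from lights on, of 0, 4, 8, 12, 16, 20 and 24, with 4 livers per regimen and time. No allele was altered and no agent was given, and each library is a whole liver sample, in which fewer cells of a type and less RNA per cell cannot be told apart. Values are scaled counts, a scale without correction for gene length, rebuilt from the deposited values, and fold changes are on the log2(scaled count + 1) scale.

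Very-low-density lipoprotein forms in the hepatocyte when the microsomal triglyceride transfer protein loads lipid onto apolipoprotein B as it enters the endoplasmic reticulum. The particle is then secreted and loses triglyceride to lipases in the blood vessels, which apolipoprotein A-V promotes and apolipoprotein C-III restrains, before apolipoprotein E directs the remnant back to the liver. High-density lipoprotein is built on apolipoproteins A-I and A-II, and hepatic lipase acts on its lipids.

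Apoa1, Apoc3, Apoa4 and Apoa5 lie side by side on chromosome 9 of GRCm38, between position 46228580 (start of Apoa1, plus strand) and position 46271919 (end of Apoa5, plus strand), and Apoc3 is the 1 gene of these 4 on the minus strand. Lipc lies elsewhere on chromosome 9 (70798128 to 70952226, minus strand), Apob on chromosome 12 (7977648 to 8016835, plus strand), Mttp on chromosome 3 (138089854 to 138144968, minus strand), Apoa2 on chromosome 1 (171225054 to 171226379, plus strand), Apoe on chromosome 7 (19696109 to 19699188, minus strand) and Apom on chromosome 17 (35128997 to 35132050, minus strand). Exons of Apoa4, Apoa5 and Mttp overlap those of genes on the other strand, over 632 of 1815 exon bases for Gm10680 in Apoa4, 524 of 2522 for Gm47544 in Apoa5 and 457 of 6206 for Trmt10a in Mttp. The use of strand in counting is not given in the sources used here, so reads in these stretches cannot be assigned with certainty. Apoa4 shares 634 exon bases with Gm47528 and Mttp 132 with Gm43691, also on the other strand. The medians over libraries were 4.17 scaled counts for Gm10680, 19.4 for Gm47544 and 0.882 for Trmt10a.

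The promoters of Apoa5 and Lipc are shown because these were the 2 genes whose rhythm differed between regimens at the same clock time. Each sequence is the 250 bases before a RefSeq transcription start in GRCm38.p6 that GENCODE also lists, read in the direction of the gene, and Lipc has 2 such starts. Capitals mark CACGTG, the E-box core that clock proteins of the CLOCK and BMAL1 type are known to bind, in Apoa5 (chr9:46268383-46268632, plus strand). The window at the 5′ end of Lipc (chr9:70952222-70952471, minus strand) holds none of the letters searched. In the window of its internal start (chr9:70934809-70935058, minus strand), capitals mark AGGTCA, the nuclear receptor core, and TGACCTTTG, which reads CAAAGGTCA on the other strand and holds a further AGGTCA.
Apoa5: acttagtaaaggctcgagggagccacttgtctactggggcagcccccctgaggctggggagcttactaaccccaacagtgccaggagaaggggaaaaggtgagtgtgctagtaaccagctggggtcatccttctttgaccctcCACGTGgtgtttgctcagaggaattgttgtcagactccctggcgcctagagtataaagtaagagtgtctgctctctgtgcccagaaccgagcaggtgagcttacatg
Lipc, start at the 5′ end: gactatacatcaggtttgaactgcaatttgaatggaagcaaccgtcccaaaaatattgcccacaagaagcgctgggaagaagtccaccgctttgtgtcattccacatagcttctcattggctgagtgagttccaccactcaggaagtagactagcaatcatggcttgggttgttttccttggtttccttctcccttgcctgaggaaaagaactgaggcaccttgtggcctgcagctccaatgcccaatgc
Lipc, internal start: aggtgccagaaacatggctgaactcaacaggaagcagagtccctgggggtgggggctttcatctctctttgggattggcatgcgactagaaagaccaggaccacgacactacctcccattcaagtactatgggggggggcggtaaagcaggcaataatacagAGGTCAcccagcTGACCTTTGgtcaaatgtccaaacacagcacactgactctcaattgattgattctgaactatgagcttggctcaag

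The E-box started 107 bases before the start of Apoa5, and 6.02% of the 32851 promoter windows of this length held CACGTG on either strand. At the internal start of Lipc (position 70934808), AGGTCA started 88 bases and TGACCTTTG 76 bases before the start, and at the start of the 5′ end (position 70952221) there was no match. The tables used here do not tell which start the livers used. AGGTCA was in 14% of the windows and CAAAGGTCA in 0.426%. Over the 14 windows that RefSeq gives for the members (Apoc3 has no entry), CACGTG was in the 2 windows of Apoa5, AGGTCA in 1 window each of Apoa2 and Lipc and CAAAGGTCA in 1 window of Lipc. The letters CAAAGTCCA, TTATGTAA and TTACGTAA, searched on both strands, matched 0 of the 14 windows, against 0.384%, 0.819% and 0.113% of all windows. Both windows of Apoa5 hold the same E-box, 107 or 82 bases before the start each one uses. These matches describe letters in a window and not sites in use.

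Per kilobase of exon, Apoa2 had the highest level, with a median of 2576 scaled counts over the 56 libraries (1367 to 3788), followed by Apoa1 at 1693 (1066 to 3576), and Apoa2 exceeded Apoa1 in 50 of 56 libraries. Apob (378, range 239 to 476) and Lipc (368, 287 to 544) came next, and this pair was not ordered, since Apob was above Lipc in 30 of 56 libraries. Apoe (259, 142 to 866) and Apoc3 (257, 180 to 438) were not ordered either, with Apoe above Apoc3 in 26 of 56. Lower per-kilobase medians were those of Apom (115), Mttp (88.1), Apoa5 (44.4) and Apoa4 (22.6). Each of these 4 was below the gene above it in at least 47 of 56 libraries.

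The libraries held 825029 to 1030112 scaled counts in all. Defining hepatocyte markers were high in every library, with a summed level over 7 measured markers of 115000 to 174000 scaled counts. Libraries differed in how long genes fared against short genes, given here as Spearman's correlation between a gene's exon length and its deviation from its mean over libraries. Group means of this length index lay between -0.24 and -0.06 at ZT0, ZT4 and ZT8 and between 0.04 and 0.19 from ZT12 to ZT24, in both regimens, so it differed between ZT0 and ZT24 although both fall at the same clock time. Within groups, the index correlated with Apob (Pearson's r = 0.67 over 56 libraries, exon length 13934 bases), Apoc3 (r = -0.67, 1014 bases) and Apom (r = -0.61, 1013 bases), and less with the other members (-0.37 to -0.04). Results for these genes are therefore given also after a smooth trend on exon length was removed from each library. Labels give no extraction or sequencing batch.

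The question was whether the daily rhythm of these transcripts followed the light or the meal. In DRF, 4 of 10 genes had a 24-h rhythm by limma's moderated F test at an adjusted p under 0.05 (Apoa4, Apoa5, Apob and Mttp), where 35.4% of all genes tested did. In NRF, 5 of 10 did (Apoa1, Apob, Apoc3, Lipc and Mttp), against 43.6% of all genes. Apob and Mttp were the 2 genes called in both regimens, where 23.5% of all genes were. The median 24-h amplitude over the members was 0.20 on the log2 scale in each regimen, and over the 12985 genes with a mean of at least 1 scaled count it was 0.16 in DRF and 0.18 in NRF. Of those 12985 genes, which include all 10 members, a larger share was called rhythmic in each regimen than of all genes tested.

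**Figure D1:**
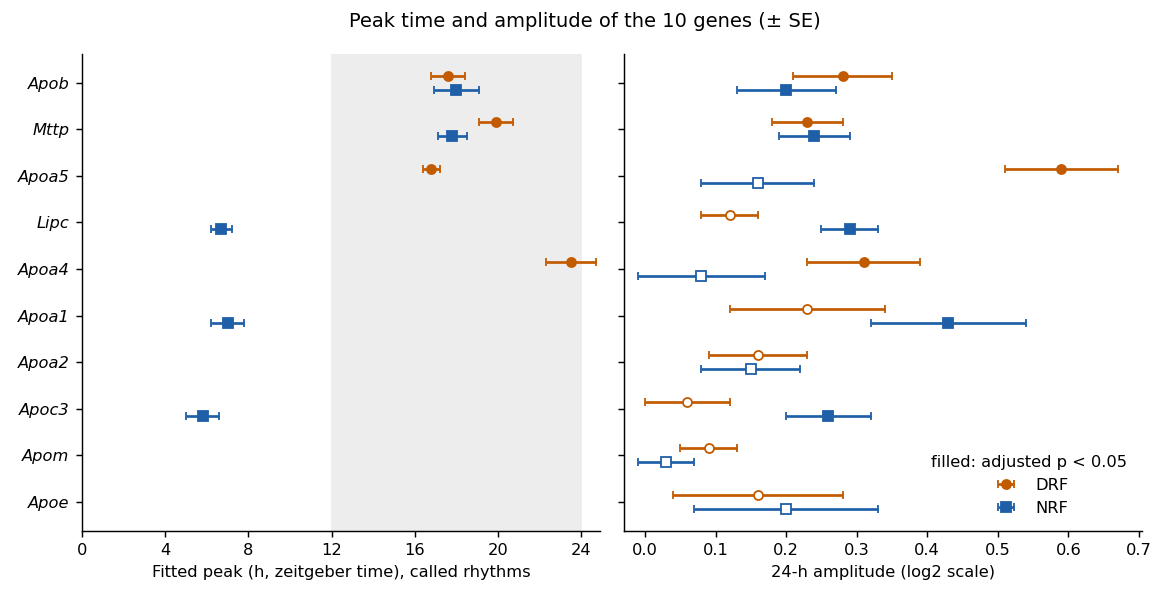
Fitted peak time in h of the rhythms called at an adjusted p under 0.05 (left, grey marks the dark phase) and 24-h amplitude on the log2 scale of all 10 genes in each regimen (right), as estimates ± SE from 28 libraries per regimen, with filled symbols for adjusted p under 0.05. Apob and Mttp peak between 17.6 and 19.9 h in both regimens, and Apoa5 has the largest amplitude, 0.59 in DRF.

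Apob, the structural protein of very-low-density lipoprotein, and Mttp, its lipid-loading partner, peaked in the dark phase in both regimens. The 28 Apob values ran from 3331 to 6402 scaled counts in DRF (median 5352) and from 3595 to 6638 in NRF (median 5072). The lowest DRF group was ZT4, with 3331, 3879, 4040 and 4287, and the highest was ZT20, with 5522, 5811, 5814 and 6402, so these groups did not overlap. In NRF the lowest group mean was at ZT8 (3595, 3847, 4681 and 4698) and the highest at ZT24 (4671, 5488, 6409 and 6473), and a single ZT24 value fell within the ZT8 range. The fitted peak was at 17.6 ± 0.8 h (SE) in DRF and 18.0 ± 1.1 h in NRF, with amplitudes of 0.28 ± 0.07 and 0.20 ± 0.07 (adjusted p = 0.0035 and 0.0402).

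The peaks of Apob lay 0.4 ± 1.4 h apart (95% interval -2.3 to 3.1 h), and the rhythms at the same clock time did not differ past the threshold (adjusted p = 0.801). Gaps between peaks are taken the shorter way round the day, so they are at most 12 h and never negative. Their intervals are symmetric about the estimate and can pass these bounds. With NRF moved by 12 h, so that both regimens are counted from the feeding phase, the rhythms differed (adjusted p = 0.000369). The rhythm-adjusted mean of Apob differed by 0.01 ± 0.06 between regimens (95% interval -0.12 to 0.13, adjusted p = 0.984). After removal of the length trend the amplitudes were 0.21 ± 0.05 and 0.16 ± 0.05 (adjusted p = 0.00568 and 0.0471), and peaks were at 17.4 and 18.1 h. The NRF rhythm is the less firm of the 2, since it missed the threshold without any 1 of the 4 replicate numbers (adjusted p = 0.0515 to 0.142) and by the rank test (0.344), and the DRF rhythm missed it without replicate 4 (0.0606). The ZT0 library of NRF replicate 1 had the highest NRF value of Apob, 6638 scaled counts, against 3739, 4065 and 4502 in the other ZT0 livers, and a length index of 0.03 against -0.33 to -0.19. Mean Apob was higher at ZT24 than at ZT0, the same clock time, in both regimens. DRF livers had 4060 to 4892 at ZT0 and 5330 to 6086 at ZT24 (0.29 ± 0.16, adjusted p = 0.326 by limma). In NRF the rise was 0.31 ± 0.16 (0.259), and it passed without NRF ZT0 replicate 1 (0.0379) or all of replicate 1 (0.0307). Without ZT24 the rhythms passed in DRF (0.00132) and NRF (0.0207). A trend along the series was not fitted.

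Mttp values ran from 447 to 861 scaled counts in DRF (median 580) and from 391 to 732 in NRF (median 517). The highest group was ZT20 in both regimens, with 669, 731, 826 and 861 in DRF and 547, 608, 658 and 732 in NRF. At ZT4 the values were 510, 546, 580 and 612 in DRF and 391, 404, 503 and 523 in NRF. Values at ZT20 thus overlapped between regimens, and in each regimen the ZT20 livers lay above the ZT4 livers. The fitted peak was at 19.9 ± 0.8 h in DRF and 17.8 ± 0.7 h in NRF, with amplitudes of 0.23 ± 0.05 and 0.24 ± 0.05 (adjusted p = 0.000606 and 0.000493), and these 2 calls held under each of the 17 alternatives tried.

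Peaks of Mttp were 2.0 ± 1.0 h apart (95% interval 0.0 to 4.1 h), with no difference past the threshold at the same clock time (adjusted p = 0.271) and a difference at the same time from feeding (adjusted p = 8.18e-06). The DRF mean was higher than the NRF mean at 7 of 7 times, by 0.16 ± 0.05 on the log2 scale over the day (1.12-fold, adjusted p = 0.0246), a call that was lost without any 1 replicate number (0.0529 to 0.127), without ZT24 (0.0595), on the deposited values (0.132) and without the NRF libraries ZT12 replicate 2 and ZT16 replicate 3 (0.0735). By single times, Mttp was higher in DRF at ZT4 (1.24-fold, adjusted p = 0.0186) and ZT24 (1.28-fold, adjusted p = 0.00864), and the ZT24 values did not overlap (643, 686, 704 and 815 against 517, 538, 556 and 601), as in 8.89% of all genes. The ZT4 call was lost without replicate 2 (0.183) or 4 (0.301) and on the deposited values (0.0622). That at ZT24 was lost without replicate 3 (0.0627) and on the deposited values (0.206). At ZT20 the difference was 1.21-fold with an adjusted p of 0.0518. Within DRF, Mttp was also higher at ZT24 than at ZT0 by 0.46 ± 0.10 (adjusted p = 0.0073), although both are the same time of day, a call lost without replicate 3 (0.0974) or 4 (0.0738).

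**Figure D2:**
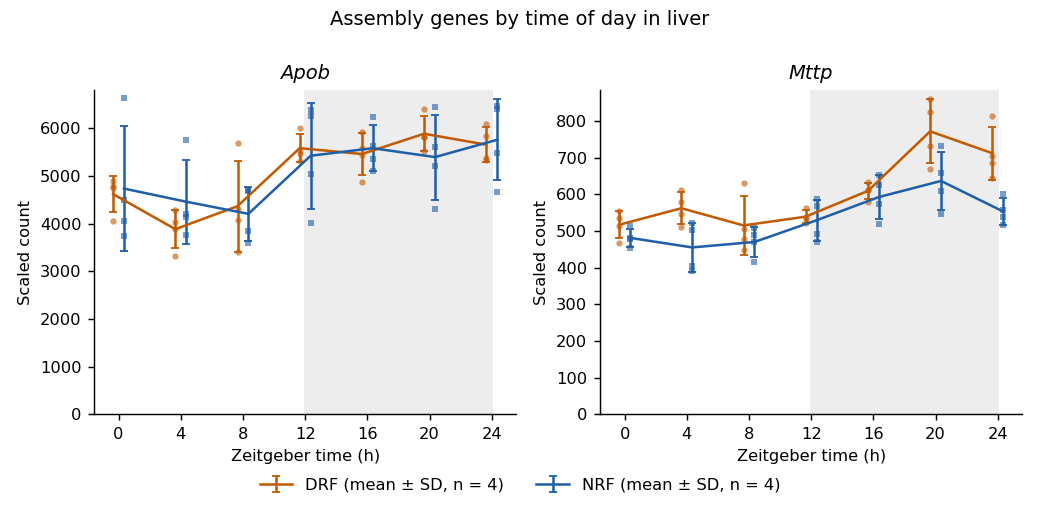
Scaled counts of Apob and Mttp against zeitgeber time in h for each liver (points) with the mean ± SD of 4 livers per group (lines), DRF in orange and NRF in blue, with the dark phase in grey. Both genes have their fitted peak in the dark phase in both regimens, with higher group means at ZT24 than at ZT0, the same clock time. Mttp at ZT24 is higher in DRF (643 to 815) than in NRF (517 to 601).

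Apoa5, which promotes the lipolysis of plasma triglyceride, showed the largest amplitude and the largest difference between regimens among the 10 genes. Its values ran from 63.0 to 228 scaled counts in DRF (median 154) and from 64.5 to 145 in NRF (median 107). At ZT20 the DRF livers had 197, 210, 219 and 221 and the NRF livers 87.4, 104, 112 and 112. At ZT16 the DRF livers had 186, 199, 227 and 228, and those of NRF 93.4, 105, 120 and 128. From ZT8 to ZT24 all 4 DRF livers lay above all 4 NRF livers at each time, an arrangement seen in 8.67%, 7.44%, 9.27%, 10.2% and 8.89% of all genes at ZT8, ZT12, ZT16, ZT20 and ZT24.

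The order at ZT4 was different for Apoa5, with 63.0, 72.7, 88.0 and 89.2 in DRF and 83.1, 92.3, 100 and 112 in NRF (DRF minus NRF -0.31 ± 0.14, adjusted p = 0.12). The differences passed the test at ZT8 (1.70-fold, adjusted p = 0.000108), ZT16 (1.88-fold, 5.59e-06), ZT20 (2.04-fold, 4.64e-07) and ZT24 (1.63-fold, 0.000283), and at ZT12 the difference was 1.31-fold with an adjusted p of 0.0543 (0.0286 with the length trend removed). The 4 calls held under each alternative tried. At ZT0, the same clock time as ZT24, the regimens overlapped, with a 1.26-fold difference (adjusted p = 0.107). That difference passed on the deposited values (0.0202) and without replicate 2 (0.0457). Over the day, Apoa5 was higher in DRF by 0.56 ± 0.07 on the log2 scale (1.47-fold, adjusted p = 1.89e-07), also under each of the 15 alternatives tried for the mean.

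In DRF, Apoa5 peaked at 16.8 ± 0.4 h with an amplitude of 0.59 ± 0.08 (adjusted p = 1.03e-07). In NRF the amplitude was 0.16 ± 0.08 and missed the threshold (adjusted p = 0.201), with a fitted peak at 15.9 ± 1.7 h. On the deposited values the NRF rhythm passed (0.0152), with a peak at 17.0 h. Apoe and Apom also gained an NRF rhythm on those values, with peaks at 17.6 and 17.4 h, so this gain was not particular to Apoa5. The rhythms of Apoa5 differed at the same clock time (adjusted p = 0.00331) and at the same time from feeding (adjusted p = 2.07e-06). The former was lost without replicate 2 (0.0724) and on the deposited values (0.0506). The fitted peaks were 0.9 ± 1.8 h apart (95% interval -2.6 to 4.4 h). Apoa5 also had a 12-h component in DRF (amplitude 0.27, adjusted p = 0.036), the 1 such call among the 10 genes, against 4.9% of all genes, and it was lost without any 1 replicate number (0.117 to 0.202). In NRF, 0 of 10 genes had a 12-h component by limma (1 of 10 at an unadjusted p under 0.05), against 2.03% of all genes. Gm47544, the gene on the other strand of Apoa5, was higher in DRF as well (0.34, adjusted p = 0.0387) and differed in rhythm at the same clock time (adjusted p = 0.0324), and its part in the result was not tested.

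Lipc, the gene of hepatic lipase, had fitted peaks 11.8 h apart in the 2 regimens, although its DRF rhythm missed the threshold. Its values ran from 624 to 950 scaled counts in DRF (median 770) and from 616 to 1169 in NRF (median 820). At ZT8 the DRF livers had 708, 764, 806 and 816 and the NRF livers 995, 1008, 1029 and 1169. At ZT4 the DRF livers had 635, 672, 680 and 697 and the NRF livers 869, 883, 940 and 1037. At ZT20 the order turned, with 716, 798, 930 and 950 in DRF and 616, 634, 672 and 751 in NRF. The DRF livers were thus below the NRF livers without overlap at ZT0, ZT4 and ZT8, an arrangement seen in 9.76%, 10.5% and 9.51% of all genes at these times, and above them with overlap at ZT20.

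Lipc was lower in DRF at ZT4 (1.39-fold, adjusted p = 0.000196) and ZT8 (1.36-fold, 0.000807), and higher at ZT20 (1.26-fold, 0.0102). The ZT20 call was lost without replicate 1 (0.0884) or 2 (0.15), and on the deposited values both it (0.0723) and the ZT4 call (0.0646) were. In NRF it peaked at 6.7 ± 0.5 h with an amplitude of 0.29 ± 0.04 (adjusted p = 7.07e-07), a call lost on the deposited values (0.73). In DRF the fitted peak was at 19.0 ± 1.2 h with an amplitude of 0.12 ± 0.04 that missed the threshold (adjusted p = 0.0618), but passed after removal of the length trend (0.16 ± 0.04, adjusted p = 0.00382). The peaks were 11.8 ± 1.3 h apart (95% interval 9.2 to 14.3 h, past the largest possible gap of 12 h). The rhythms differed at the same clock time (adjusted p = 6.03e-07) under each alternative tried. At the same time from feeding the difference missed the threshold (adjusted p = 0.0633), also with the length trend removed (0.498). It passed on the deposited values (0.0456), with genes of a mean of at least 1 (0.0474) and on a linear scale (0.0337). It also passed without the NRF libraries ZT12 replicate 2 and ZT16 replicate 3 (0.0236). The rhythm-adjusted mean of Lipc was 0.10 ± 0.04 lower in DRF (adjusted p = 0.103), which passed with the length trend removed (0.0365).

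Apoa4, an apolipoprotein of chylomicrons and high-density lipoprotein that is also made in large amounts by the intestine, was higher in DRF. Its values ran from 27.8 to 97.6 scaled counts in DRF (median 50.3) and from 25.2 to 50.7 in NRF (median 37.0). At ZT4 the DRF livers had 50.3, 50.4, 54.8 and 83.6 and the NRF livers 32.7, 35.1, 35.7 and 41.2, without overlap, an arrangement seen in 12.2% of all genes, and at the other 6 times the regimens overlapped. The ZT4 difference was 1.60-fold (adjusted p = 0.0339) and was lost without replicate 1 (0.0884), 2 (0.201) or 4 (0.136) and with the length trend removed (0.059). Over the day the difference was 0.39 ± 0.09 (1.31-fold, adjusted p = 0.00197, with the DRF mean higher at 7 of 7 times), and this held under each alternative tried.

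In DRF, Apoa4 peaked at 23.5 ± 1.2 h with an amplitude of 0.31 ± 0.08 (adjusted p = 0.00904), which was lost without replicate 2 (0.202) and by the rank test (0.105). In NRF its amplitude was 0.08 ± 0.09 (adjusted p = 0.783). The rhythms did not differ past the threshold at the same clock time (adjusted p = 0.135) and missed it narrowly at the same time from feeding (0.0501). Gm10680, on the other strand of Apoa4, was higher in DRF too (0.30, adjusted p = 0.0179). Of 5 enterocyte markers 2 were measured, Fabp2 and Vil1, with summed levels of 18.3 to 37.0 scaled counts in DRF and 11.9 to 30.9 in NRF. Fabp2 was higher in DRF (0.32, adjusted p = 0.0023), and the defining marker Vil1 stood at 0.287 in DRF and 0.313 in NRF. The part of these genes in the Apoa4 result was not tested.

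**Figure D3:**
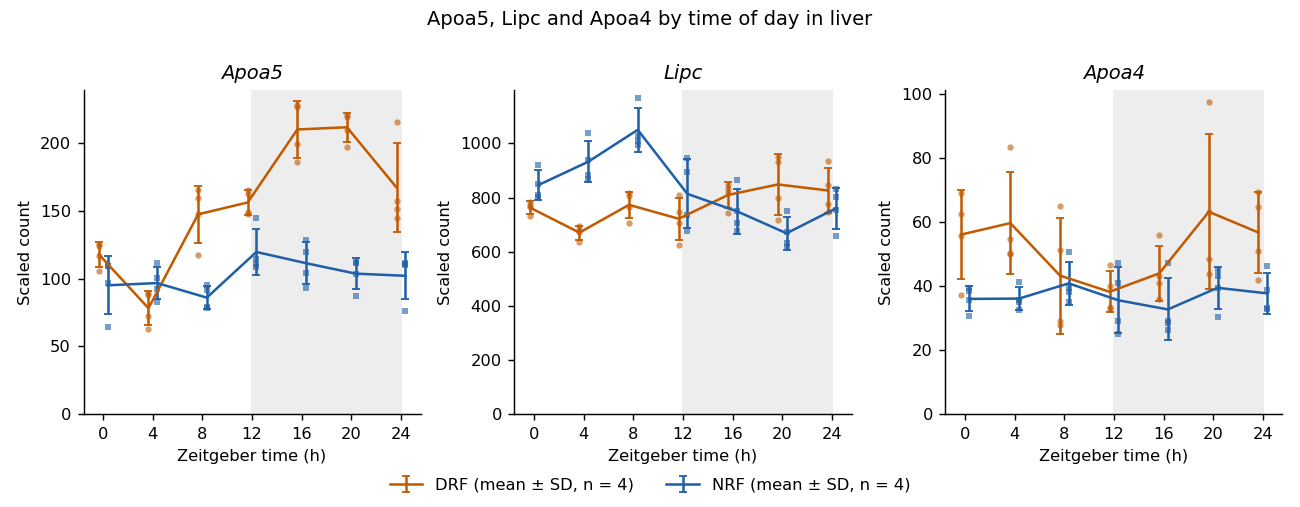
Scaled counts of Apoa5, Lipc and Apoa4 against zeitgeber time in h for each liver (points) with the mean ± SD of 4 livers per group (lines), DRF in orange and NRF in blue, with the dark phase in grey. All DRF livers lie above all NRF livers for Apoa5 from ZT8 to ZT24, while for Lipc the DRF livers lie below the NRF livers at ZT4 and ZT8.

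Apoa1, the main protein of high-density lipoprotein, peaked in the light phase in NRF. Its values ran from 1332 to 3311 scaled counts in DRF (median 2001) and from 1318 to 4421 in NRF (median 2572). The highest NRF group was ZT8, with 2639, 3398, 3890 and 4259, and the lowest was ZT20, with 1413, 1708, 1822 and 2242, without overlap. The NRF peak was at 7.0 ± 0.8 h with an amplitude of 0.43 ± 0.11 (adjusted p = 0.00301), and it was lost on the deposited values (0.379) and by the rank test (0.0894). Within NRF, Apoa1 was lower at ZT24 than at ZT0, the same clock time (1532 to 2679 against 2773 to 3219). That difference of -0.67 ± 0.25 missed the threshold (adjusted p = 0.092 by limma) and passed without replicate 1 (0.0442). Without ZT24 the NRF rhythm of Apoa1 passed (0.00427). In DRF the fitted peak was at 4.6 ± 1.6 h with an amplitude of 0.23 ± 0.11 (adjusted p = 0.205), while the rank test, alone or combined with the cosinor, called it (0.0342 and 0.0216). The rhythms differed at the same time from feeding (adjusted p = 0.00319, but 0.902 on the deposited values) and not past the threshold at the same clock time (0.276).

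Averaged over the day, Apoa1 was lower in DRF by 0.33 ± 0.10 (1.26-fold, adjusted p = 0.0322), with the DRF mean higher at 1 of 7 times. That call was lost without any 1 replicate number (0.0705 to 0.233), on the deposited values (0.133) and without the NRF libraries ZT12 replicate 2 and ZT16 replicate 3 (0.103). NRF values of Apoa1 were widely spread at ZT12, where the livers had 1318, 1856, 3609 and 4102. No single time passed the test (adjusted p = 0.153 to 0.988 by limma), and at ZT8, the time with the smallest p, the DRF livers had 1964, 2104, 2310 and 3311.

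Apoa2, the second protein of high-density lipoprotein, ranged from 1137 to 1770 scaled counts in DRF (median 1421) and from 734 to 2034 in NRF (median 1305). Its rhythm missed the threshold in DRF (peak 4.3 ± 1.5 h, amplitude 0.16 ± 0.07, adjusted p = 0.142) and NRF (6.3 ± 1.5 h, 0.15 ± 0.07, 0.171). At the same time from feeding the regimens differed (adjusted p = 0.0365), but not after removal of the length trend (0.645), and the call was also lost without replicates 1, 2 or 4 (0.0799 to 0.336) under median-of-ratios scaling (0.0531) and on the deposited values (0.385). The 2 extreme NRF values were 734 at ZT12 (replicate 3) and 2034 at ZT16 (replicate 3). Without the NRF libraries ZT12 replicate 2 and ZT16 replicate 3, an alternative chosen after the values were seen, both rhythms of Apoa2 passed (adjusted p = 0.0458 in DRF and 0.00297 in NRF), and so did its mean, higher in DRF by 0.22 ± 0.05 (0.00477), against 0.15 ± 0.06 (0.159) with them.

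Apoc3, which slows triglyceride lipolysis, lies in the same cluster as Apoa5. Its values ran from 232 to 315 scaled counts in DRF (median 265) and from 183 to 444 in NRF (median 252). In NRF the livers had 280, 286, 342 and 367 at ZT8 and 215, 226, 229 and 232 at ZT16, without overlap. The NRF peak was at 5.8 ± 0.8 h with an amplitude of 0.26 ± 0.06 (adjusted p = 0.00216), and 0.18 ± 0.05 (0.00815) with the length trend removed, but the rank test (0.103) and the deposited values (0.683) missed the threshold. In DRF the amplitude was 0.06 ± 0.06 (adjusted p = 0.737). At ZT16 all 4 DRF values (250.0, 265, 269 and 292) lay above those of NRF, as in 9.27% of all genes, with a difference of 0.25 ± 0.14 (adjusted p = 0.223). The rhythms differed at the same time from feeding (adjusted p = 0.0108), not so after removal of the length trend (0.199), on the deposited values (0.737) or without replicate 3 (0.102) or 4 (0.076), while at the same clock time the p moved from 0.173 to 0.0402 with the trend removed.

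Within NRF, Apoc3 was lower at ZT24 than at ZT0 (184, 199, 208 and 258 against 279, 311, 317 and 353), by 0.58 ± 0.14 (adjusted p = 0.00532), a call lost without replicate 2 (0.139) or 4 (0.114) and with the length trend removed (0.0504). This was the 1 gene of 10 that differed past the threshold between the ends of the NRF series, where 8.33% of all genes did and 5.92% were lower. In DRF 2 of 10 did, Mttp and Apoa5, both higher at ZT24, where 3.12% of all genes did and 1.42% were higher, and for Apoa5 (0.49 ± 0.14, adjusted p = 0.0452) the call was lost without any 1 replicate number (0.1 to 0.201).

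Apom, the carrier of sphingosine 1-phosphate on high-density lipoprotein, had 92.8 to 135 scaled counts in DRF (median 114) and 97.9 to 139 in NRF (median 124). Its highest group mean exceeded the lowest 1.17-fold in DRF and 1.16-fold in NRF, the smallest such ratios among the 10 genes. At ZT8 the DRF livers had 98.2, 112, 114 and 117, below the NRF livers at 125, 128, 133 and 139 (9.51% of all genes were so arranged), but the difference of -0.25 ± 0.09 missed the threshold (adjusted p = 0.0695) and passed it with the length trend removed (0.00922). Removal of the trend also changed its DRF rhythm, from an amplitude of 0.09 ± 0.04 (adjusted p = 0.116) to 0.17 ± 0.04 (0.000764) with a peak at 16.3 h, and the difference between regimens at the same time from feeding from an adjusted p of 0.214 to 0.000536.

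Apoe, the ligand by which remnants are taken up, passed none of the 5 tests of rhythm and mean in the main analysis. With the deposited values, its NRF rhythm passed (peak 17.6 h, adjusted p = 0.0349 by limma). So did its difference between regimens at the same time from feeding (0.00582). Its values ran from 304 to 1148 scaled counts in DRF (median 560) and from 303 to 1851 in NRF (median 529). The mean difference was 0.07 ± 0.13 (95% interval -0.17 to 0.32, adjusted p = 0.817). The spread came mainly from a few livers, since NRF ZT12 had 303, 522, 561 and 1851 and NRF ZT16 had 430, 532, 571 and 1507. The liver with 1851 is NRF ZT12 replicate 2 and that with 1507 is NRF ZT16 replicate 3. Kupffer cell markers, of a cell type known to make Apoe, summed to 762 scaled counts in the former and 584 in the latter. The other livers of these groups had 690, 736 and 753 at ZT12 and 507, 678 and 682 at ZT16. Over the NRF livers of all times the range was 507 to 1200. The part of these cells in the Apoe values was not tested.

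**Figure D4:**
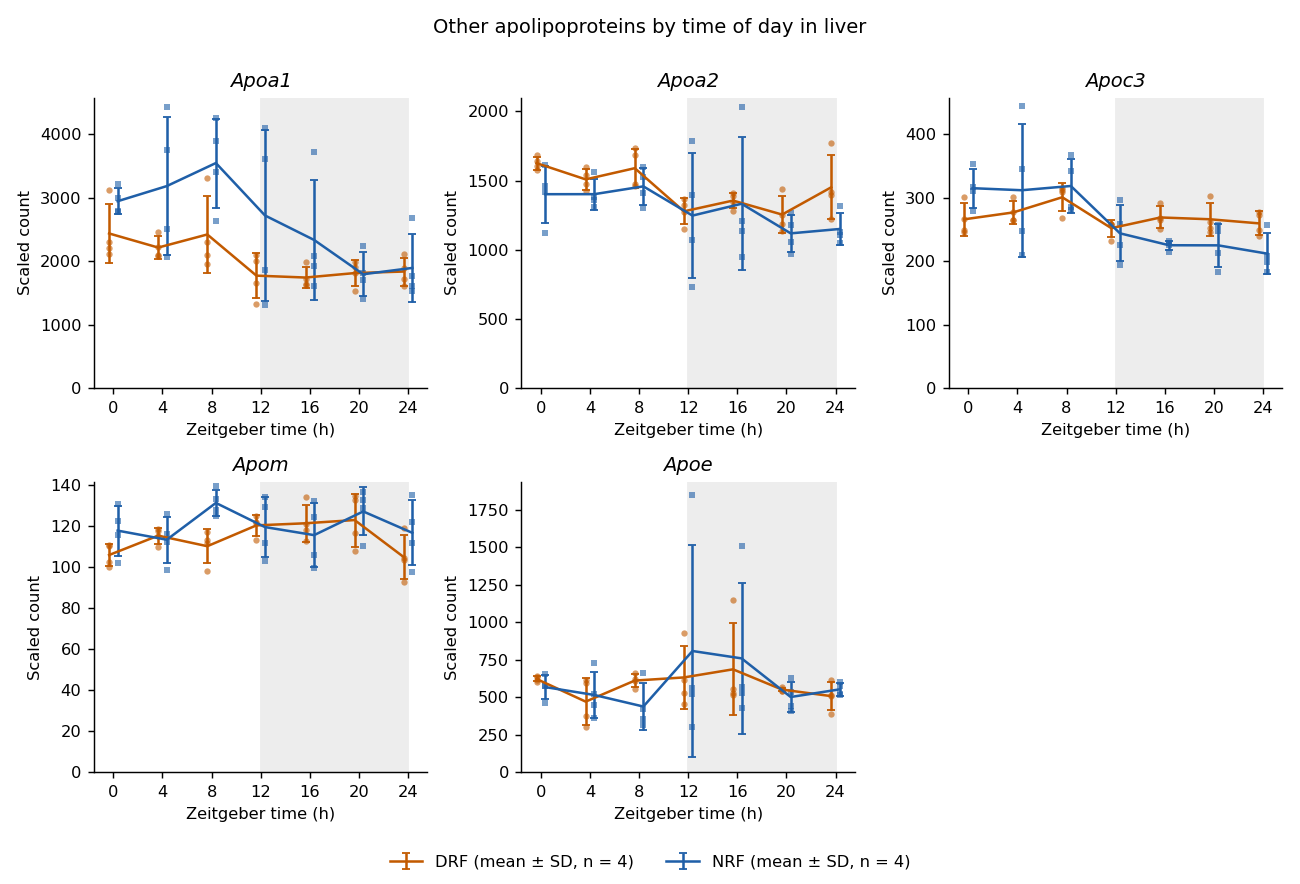
Scaled counts of Apoa1, Apoa2, Apoc3, Apom and Apoe against zeitgeber time in h for each liver (points) with the mean ± SD of 4 livers per group (lines), DRF in orange and NRF in blue, with the dark phase in grey. Apoa1 reaches 4421 in NRF and 3311 in DRF, and single NRF livers stand apart for Apoe at ZT12 (1851) and ZT16 (1507).

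Over the 10 genes, 2 differed in rhythm between regimens at the same clock time (Apoa5 and Lipc), where 38.6% of all genes did, and 6 differed at the same time from feeding (Apoa1, Apoa2, Apoa5, Apob, Apoc3 and Mttp), where 34.9% did. The rhythm-adjusted mean differed for 4 of 10, against 6.94% of all genes: 3 were higher in DRF (Apoa4, Apoa5 and Mttp, background 4.26%) and 1 lower (Apoa1, background 2.68%). Among genes with a mean of at least 1 scaled count, as all 10 members have, larger shares differed in rhythm, on either time scale, and in mean. The median difference in mean over the members was 0.07, and over all genes -0.00158. At ZT4, 3 of 10 passed (20.7% of all genes), with Mttp and Apoa4 higher in DRF (background 11.2%) and Lipc lower (9.55%). At ZT8, 2 of 10 passed (13.1%), with Apoa5 higher (5.73%) and Lipc lower (7.39%). At ZT16 Apoa5 was higher (15.5% of all genes called, 8.96% higher), at ZT20 Apoa5 and Lipc were (13.9% and 7.91%), and at ZT24 Mttp and Apoa5 were (14% and 7.15%). At ZT0 (16% of all genes) and ZT12 (15.3%), 0 of 10 passed by limma, with 2 and 1 of 10 at an unadjusted p under 0.05. Where these means differed, red cell transcripts did too: 4 of 4 erythroid markers were higher in DRF (0.35 to 0.63), with a summed level of 540 to 1960 scaled counts in DRF and 452 to 1300 in NRF, and none of the 4 markers was at 0. Hepatocyte markers went both ways, with 2 of 7 higher in DRF and 2 lower. Kupffer cell (6), sinusoidal endothelial (6), stellate (6) and cholangiocyte (4 measured) markers gave 0 calls on the mean by limma, with 0, 0, 0 and 2 at an unadjusted p under 0.05. In rhythm at the same clock time, 1 Kupffer cell, 5 sinusoidal endothelial, 2 stellate and 3 cholangiocyte markers differed (38.6% of all genes did). There, 3 of 7 hepatocyte and 0 of 4 erythroid markers differed. The single pancreatic acinar marker measured, Cela1, was lower in DRF (-0.41, adjusted p = 4.05e-07), at 1.58 to 2.75 scaled counts against 1.8 to 4.72 in NRF. The part of these cell types in the members' results was not tested.

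**Figure D5:**
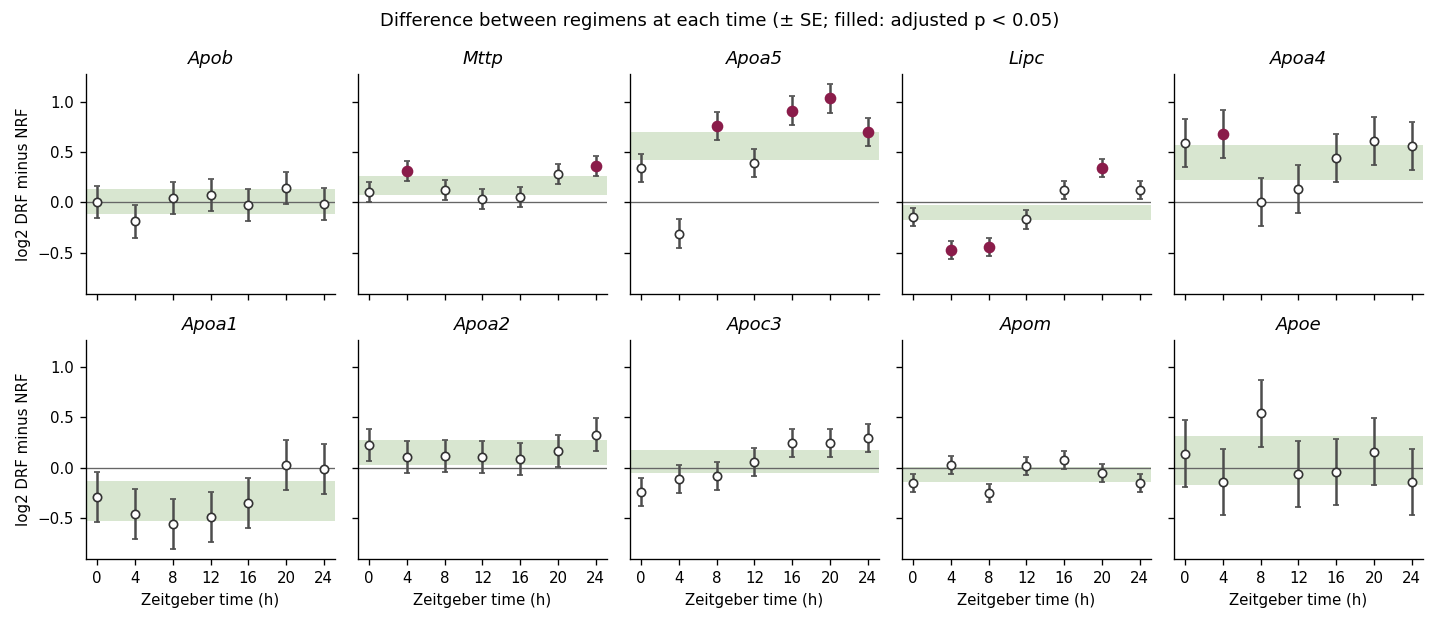
Difference DRF minus NRF on the log2 scale at each zeitgeber time in h for the 10 genes (points ± SE, filled where the adjusted p is under 0.05), with the green band giving the 95% interval of the difference in rhythm-adjusted mean. Apoa5 passes at ZT8, ZT16, ZT20 and ZT24 and reaches 1.03 at ZT20, Lipc passes below 0 at ZT4 and ZT8 and above 0 at ZT20, and Apob stays between -0.19 and 0.14.

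Other genes of the pathway were counted over lists. The shares of all genes called were 35.4% for a rhythm in DRF, 43.6% in NRF, 38.6% for a difference at the same clock time, 34.9% at the same time from feeding and 6.94% in mean. These shares include genes with a mean under 1 scaled count, of which the lists hold few. Among genes with a mean of at least 1, a larger share was called in each of these comparisons. A list count above the share of all genes is therefore not by itself an enrichment. Of 20 genes of lipoprotein assembly and secretion, 11 were rhythmic in DRF and 17 in NRF, 17 differed in rhythm at the same clock time and 11 at the same time from feeding, and 9 differed in mean (7 higher in DRF, 2 lower). Sort1, a sorting receptor of apolipoprotein B, had 74.8 ± 12.3 (SD, n = 4) scaled counts at ZT8 and 23.7 ± 0.787 at ZT20 in NRF and ranged between 40.2 ± 3.75 at ZT12 and 19.3 ± 4.18 at ZT24 in DRF. Its mean was 0.51 ± 0.09 lower in DRF (adjusted p = 5.24e-05). Soat2, which makes cholesteryl ester for the particle, peaked at 9.1 ± 0.2 h in NRF and 22.9 ± 1.2 h in DRF. Mia3, of the machinery for large cargo, peaked at 9.1 ± 0.4 h and 22 ± 0.6 h. Dgat2, the last enzyme of triglyceride synthesis, reached 831 ± 114 at ZT12 in NRF and 753 ± 24.8 at ZT4 in DRF. Cideb, a protein of particle lipidation, varied least in this list, 1.15-fold in NRF and 1.11-fold in DRF.

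Among 16 measured genes of receptors and remodelling, 8 were rhythmic in DRF (35.4% of all genes) and 12 in NRF (43.6%), 10 differed at the same clock time (38.6%), 7 at the same time from feeding (34.9%) and 4 in mean (6.94%), each higher in DRF. Angptl8, an insulin-induced inhibitor of lipoprotein lipase, peaked at 5.2 ± 0.8 h in DRF and 19.4 ± 0.9 h in NRF. Its peaks thus lay in the phase in which food was given. Lpl peaked at 8.5 ± 0.9 h in DRF and 4.0 ± 0.5 h in NRF, and Sdc1, a remnant receptor, at 9.9 ± 1.0 h and 21.1 ± 0.4 h. Lrpap1 varied least (1.17-fold and 1.25-fold).

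Of 12 other apolipoproteins measured, 6 were rhythmic in each regimen (35.4% of all genes in DRF and 43.6% in NRF), 3 differed at the same clock time (38.6%), 7 at the same time from feeding (34.9%) and 1 in mean (6.94%). Apof, an inhibitor of lipid transfer, peaked at 15.4 ± 0.7 h in DRF (amplitude 0.16 ± 0.03, adjusted p = 0.000198), and in NRF its amplitude was 0.06 ± 0.03 (0.254). Apoh had amplitudes of 0.18 ± 0.04 and 0.05 ± 0.03, and Apon of 0.17 ± 0.05 and 0.21 ± 0.04. Clu varied least, 1.14-fold in each regimen.

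Among 19 measured factors that act on apolipoprotein genes, 14 were rhythmic in DRF (35.4% of all genes) and 17 in NRF (43.6%), 16 differed at the same clock time (38.6%), 11 at the same time from feeding (34.9%) and 2 in mean (6.94%). Nr1d1, the clock repressor known to act on Apoc3, ran from 83.5 ± 4.7 scaled counts at ZT8 to 0.557 ± 0.115 at ZT20 in NRF and from 29.1 ± 12.7 at ZT20 to 4.13 ± 1.42 at ZT12 in DRF. Srebf1, the insulin-induced regulator of lipid synthesis, peaked at 6.7 ± 0.3 h in DRF and 18.2 ± 0.5 h in NRF. Nr1d2 peaked at 21.6 ± 0.3 h and 10.6 ± 0.2 h. Srebf2 varied least, 1.32-fold in DRF and 1.41-fold in NRF.

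For the 4 members with the largest amplitude averaged over regimens, the genes with the most similar 14 group means were, as a description over means that share their libraries, Tmem183a, Gid4 and Rdx for Apoa5 (Pearson's r = 0.93, 0.92 and 0.89), Igfbp2, Nenf and Ypel4 for Apoa1 (0.95, 0.93 and 0.93), Usp9x, Ascc3 and Gm4788 for Apob (0.97, 0.97 and 0.96) and Klhl7, Il1rap and Fastkd1 for Mttp (0.92, 0.92 and 0.92). Among the members themselves, deviations from the group mean correlated most for Apoa1 with Apoa2 (r = 0.71 over 56 libraries), Apoa2 with Apoe (0.71) and Apoa2 with Lipc (0.69). The livers NRF ZT12 replicate 2 and NRF ZT16 replicate 3 were each the highest of their group for Apoa2, Apoe and Lipc. The correlations were not computed without these livers. Apob with Mttp gave 0.23 within groups and 0.67 over the 14 group means. Apoa5 with its cluster neighbours gave 0.23 with Apoc3, 0.05 with Apoa1 and -0.01 with Apoa4 within groups.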

How the data were processed

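Ribosomal-RNA-depleted, strand-specific libraries of 56 livers were read as 150 bp pairs. Per the labels' processing notes, CASAVA 1.8 and featureCounts 1.5.0-p3 were used with mm10 (GRCm38.p6), and neither an aligner nor a strand setting is given in the sources used here. The authors deposited a gene table named TPM, whose values are treated here as a score: value times exon length (GENCODE vM21) followed a·ln(1 + f·k) with whole counts k in each library. The scaled count f·k was rebuilt per value, and 99% of values at up to 10 counts, in genes not used to fit the curve, fell within 0.05 of a whole number. Recovered counts exceed the sequencing depth that the study states, so they are not reads, and no counting interval was computed from them. Of 25415 genes, 2254 could not be rebuilt or matched and were left out. Apoa1, Apoa2 and Apob were too deep for wholeness to be judged and were used with their annotated length. A filter at a mean deposited value of 0.1 removed 0 genes, and 0 table columns were unassigned.

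limma 3.58.1 (R 4.3.3) was fitted to log2(scaled count + 1) of 56 libraries and 23161 genes with an intensity trend, with a mean and 24-h cosine and sine terms per regimen, with 12-h terms added, and with 14 group means. Adjusted p-values are Benjamini-Hochberg over all genes. Amplitude is from mean to peak, and SEs of amplitude and peak are by the delta method. The scripts were tested on simulated data. Members and lists were chosen with earlier results of these data known. Named list genes are up to 4 with a rhythm difference at the same clock time and the largest ratio of group means, and the 1 with the smallest ratio, of those with a mean of at least 1. Some genes that this rule names are not reported here. Replicate numbers name different animals. The transcript and circular RNA tables were not used. Sequences are RefSeq, GRCm38.p6. Alternatives were log2(deposited value + 0.1), a pseudocount of 0.1, a mean of at least 1 scaled count, median-of-ratios scaling, removal of the length trend, leaving out each replicate number or ZT24, a replicate block, a linear scale, no intensity trend and, for rhythms, an exact Kendall rank test on 12 templates, alone or combined with the cosinor. Leaving out NRF ZT12 replicate 2 with NRF ZT16 replicate 3, or NRF ZT0 replicate 1, was chosen after seeing the data.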

Additional observations from a re-analysis of the deposited data

Results flagged for a closer look

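Of 140 groups of 4 livers (10 genes in 14 groups), 9 held a liver whose gap to its nearest neighbour passed Dixon's critical value at the 95% level, as a share of the range of the group. Chance flags about 1 in 20 such groups. Apoe was 1851 scaled counts in NRF ZT12 replicate 2 (302.7 to 560.6 in the other 3 livers), 1507 in NRF ZT16 replicate 3 (430.4 to 570.7) and 1148 in DRF ZT16 replicate 1 (515.5 to 552.7). The first of these livers was also high for Apoa5 (144.6 against 108.7 to 114.7), and the next for Apoa4 (47.22 against 26.27 to 29.04). Apoa4 was 83.59 in DRF ZT4 replicate 2 (50.25 to 54.78), and without replicate 2 its DRF rhythm and its ZT4 difference missed the threshold (adjusted p = 0.202 and 0.201 by limma). Apoa5 was 76.38 in NRF ZT24 replicate 4 (110.0 to 111.4). Apoc3 was low in DRF ZT8 replicate 1 (267.6 against 308.3 to 315.3) and in DRF ZT12 replicate 4 (232.4 against 257.5 to 259.3). The source of these values was not tested.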

How the results depend on the processing

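Of 35 calls on single members, 14 held under each alternative run for them. Apom in NRF had no rhythm in the main analysis (fitted peak 10.9 h, adjusted p = 0.826 by limma) and, on the deposited values, passed with a peak at 17.4 h (adjusted p = 0.0423). The number of members called moved by more than 1.5 times as follows, and the cause was not tested. Rhythmic members in DRF numbered 8 with the rank test and cosinor combined, and those in NRF 2 by the rank test alone. On the deposited values, 1 member differed in rhythm at the same clock time and 2 in mean, and by single times 2 did at ZT0 and 1 each at ZT4, ZT12, ZT20 and ZT24. At ZT12, 1 member passed also with genes of a mean of at least 1, median-of-ratios scaling, the length trend removed, and without ZT24. Between ZT24 and ZT0 in NRF, removal of the length trend left 1286 genes (1930 before) and 0 members.

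Leaving out a replicate number, or the doubted NRF libraries, gave 1 to 3 members for the rhythm difference at the same clock time and 710 to 1463 genes (2 to 4 members) for the mean. By single times it gave 0 to 1 members at ZT0, 3033 to 5167 genes (1 to 3 members) at ZT4, 1827 to 3304 genes at ZT8, 2248 to 3601 genes (0 to 1 members) at ZT12, 2097 to 3692 genes at ZT16, 2114 to 3491 genes (1 to 3 members) at ZT20 and 2025 to 3490 genes (1 to 2 members) at ZT24. The 12-h component gave 313 to 1264 genes (0 to 1 members) in DRF and 122 to 488 genes in NRF, and ZT24 against ZT0 gave 109 to 1032 genes (0 to 2 members) in DRF and 186 to 2544 genes (0 to 3 members) in NRF.

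Replicate numbers share only a name: the mean correlation of deviations was 0.00405 between same-numbered libraries and -0.00131 between others, and in 0 of 91 pairs of groups were all correlations over 0.1. With the replicate block, Apoa5 lost its ZT24 against ZT0 call in DRF (adjusted p = 0.0545), which leaves 1 member, and Apoa4 gained a rhythm difference at the same time from feeding (0.0459), and no other call on the members moved. Reads per gene were not derived from the table, so counting error was not set beside the spread between livers.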
